A study of Mus musculus with 6 samples.

Results

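The SMAD family holds the intracellular proteins that carry signals of BMP and TGF-beta ligands from receptors at the cell surface to DNA. Its 8 mouse genes, Smad1 to Smad7 and Smad9, were taken by symbol from an array table of cultured adult muscle stem cells, and all 8 were measured, among 20163 genes with a symbol. Each had 1 probe set, the group of probes that reads a gene, so no choice between probe sets was needed. The cells came from muscle of female mice of the C57BL/6J strain, 6 to 8 weeks old, and grew on Matrigel for 2 days. Both groups then spent 6 h without serum in 200 ng/ml of ALK3-Fc, a soluble form of the BMP receptor Bmpr1a that captures free BMP. The BMP6 group (3 samples) next received 100 ng/ml BMP6 for 1 h, and the vehicle group (3 samples) received the solvent alone. No genetic change is named for either group, so the comparison is of 2 treatments of cultured cells at a single early time.

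Ligand-bound type II receptors activate type I receptors, which phosphorylate the receptor SMADs. SMAD1, SMAD5 and SMAD9 (also called SMAD8) serve BMP receptors, and SMAD2 and SMAD3 serve TGF-beta and activin receptors. Both branches pair with the common SMAD4 to enter the nucleus and bind DNA. SMAD6 and SMAD7 are inhibitory: they lack the tail that receptors phosphorylate, block the receptors or compete with the receptor SMADs, and are known feedback targets of the pathway in many cell types. The BMP branch is known to keep muscle stem cells dividing and to delay their differentiation.

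The promoters of Smad6, Smad9 and Smad1 are shown because these genes differed in their response: Smad6 rose, Smad9 stood above vehicle without passing the test, and Smad1, a close relative of Smad9, had overlapping groups. Each sequence runs from 150 bases before to 10 bases after a RefSeq start site of the GRCm38.p6 build, on the strand of the gene. Smad6 lies on the minus strand at chr9:64022050-64022209, Smad9 on the plus strand at chr3:54755432-54755591 and Smad1 on the minus strand at chr8:79399419-79399578. Capitals mark GTCT on either strand, the core to which SMAD3 and SMAD4 bind, and GGCGCC, a GC-rich site that BMP receptor SMADs are known to prefer. In Smad6 they also mark GCCGCC, the first part of a composite explained after the sequences.
Smad6: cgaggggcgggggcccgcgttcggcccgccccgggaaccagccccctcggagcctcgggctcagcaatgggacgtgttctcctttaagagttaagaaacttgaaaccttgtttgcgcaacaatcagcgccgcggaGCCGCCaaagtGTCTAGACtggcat
Smad9: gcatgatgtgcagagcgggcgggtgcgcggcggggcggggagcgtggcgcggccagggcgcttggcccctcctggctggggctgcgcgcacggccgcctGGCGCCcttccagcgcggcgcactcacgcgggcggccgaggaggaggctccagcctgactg
Smad1: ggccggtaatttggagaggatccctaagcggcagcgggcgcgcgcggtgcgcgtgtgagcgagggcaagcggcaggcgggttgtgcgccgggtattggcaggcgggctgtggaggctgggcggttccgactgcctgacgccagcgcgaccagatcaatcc

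Motifs were searched on both strands of the full RefSeq windows, which run from 250 bases before to 50 after a start site, and set beside all 32851 such windows. The Smad6 window held GTCTAGAC, in which GTCT and its reverse complement AGAC stand end to end, at positions -4 to 4 around the start site. Of all windows, 0.213% held that palindrome. It also held the composite of GNCGNC, a gap of 5 bases and GTCT, at positions -15 to -1, so that both matches share the same GTCT. Of all windows, 0.667% held the composite. The Smad9 window held 1 GGCGCC, at -51 to -46, and 2 copies of GTCT outside the stretch shown, at -181 to -178 and at 28 to 31. The Smad1 window held none of the 4 motifs.

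The Smad3 window held 1 GTCT and no GGCGCC, and the 3 windows of Smad5 held 1 or 2 copies of GTCT. In 2 of these Smad5 windows, which overlap, the same single GGCGCC stood at 24 to 29 and at -19 to -14 from their respective start sites. Smad9 was thus not alone in holding this motif. The palindrome and the composite were found in the window of Smad6 and in none of those of Smad1, Smad3, Smad5 and Smad9. GGCGCC occurred in 11.9% and GTCT in 88% of all windows, so a match to either is common. These 5 of the 8 genes were matched to windows, and the promoters of Smad2, Smad4 and Smad7 were not analysed here. A match is a run of letters and does not show binding.

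After 1 h of BMP6 both inhibitory SMADs rose, and no receptor SMAD and not Smad4 passed the test. Values are log2 expression after RMA, the authors' array normalization, so that a difference of 1 is a 2-fold change. Genes were compared by limma, with Benjamini-Hochberg adjustment over all 20163 genes, and called at an adjusted p under 0.05. Of the 8 SMADs 2 were called higher and 0 lower, beside 17 genes called higher and 0 lower over the whole array (0.0843% of the genes tested; 639 genes at an unadjusted p under 0.05). The median log2 difference was 0.093 over the 8 SMADs and -0.0013 over all genes.

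**Figure D1:**
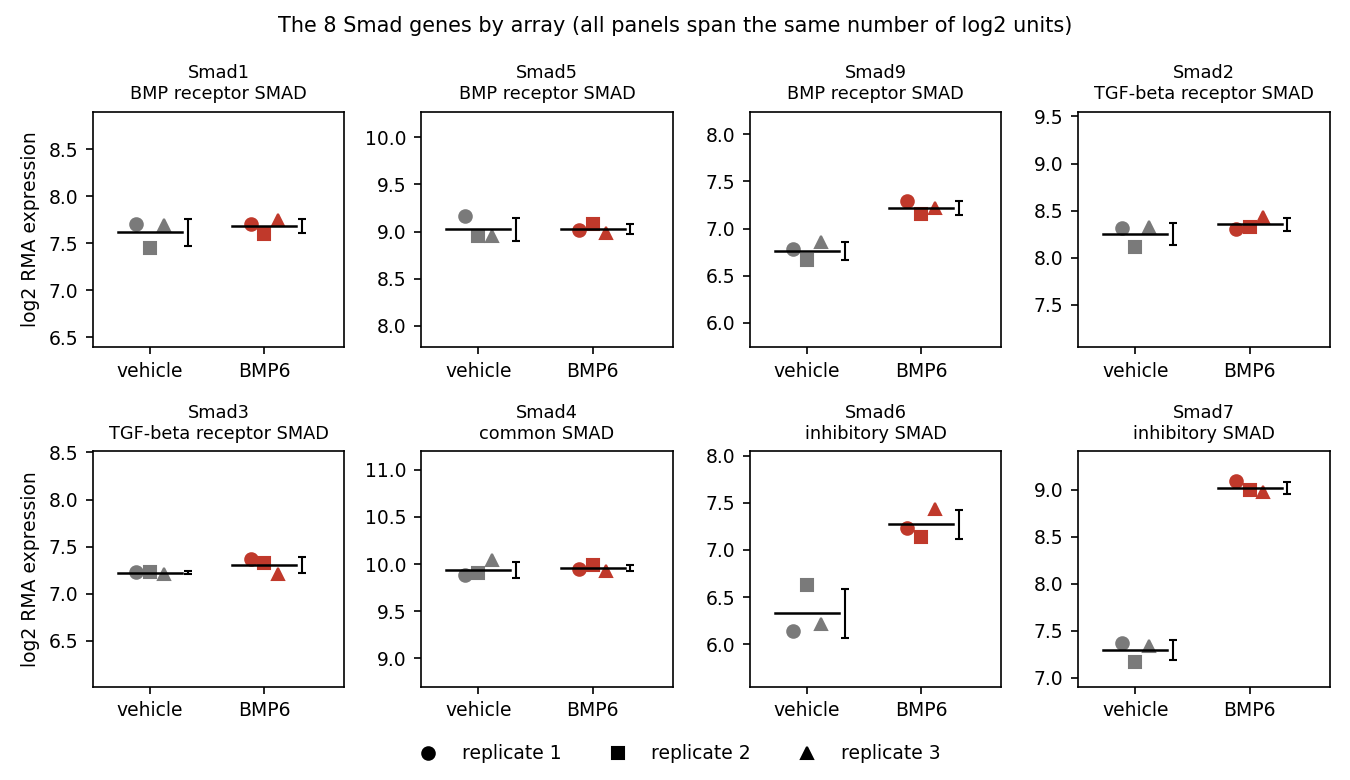
Log2 RMA expression of each of the 8 Smad genes on the 6 arrays, with vehicle in grey and BMP6 in red, symbols for replicate numbers, a line for the group mean and a bar for 1 SD (n = 3). In Smad7, Smad6 and Smad9 the 3 BMP6 arrays lie above the 3 vehicle arrays, and in the other panels the groups overlap.

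Smad7, the inhibitory SMAD that acts on both the TGF-beta and the BMP branch by holding activated type I receptors and bringing ubiquitin ligases to them, showed the largest difference of the family. It stood at 7.37, 7.17 and 7.34 in vehicle replicates 1, 2 and 3 and at 9.09, 8.99 and 8.97 in BMP6 replicates 1, 2 and 3. The groups did not overlap, and the gap of 1.60 between the lowest BMP6 and the highest vehicle array was wider than the range within either group (0.200 in vehicle, 0.113 in BMP6). The rise was 3.30-fold (95% interval 2.91 to 3.75; log2 difference 1.72, SE 0.08, limma adjusted p = 3.93e-05). Smad7 had the lowest p of all 20163 genes and ranked 3 in the size of its rise.

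Smad6, which acts mainly on the BMP branch by blocking BMP type I receptors and by competing with SMAD4 for SMAD1, rose as well, with a wider spread between arrays. It stood at 6.14, 6.62 and 6.21 in vehicle replicates 1, 2 and 3 and at 7.24, 7.14 and 7.44 in BMP6 replicates 1, 2 and 3. The groups did not overlap. Vehicle replicate 2 was the highest vehicle array and BMP6 replicate 2 the lowest BMP6 array, and the 0.511 between them was close to the vehicle range of 0.484. The rise was 1.92-fold (1.57 to 2.36; log2 difference 0.94, SE 0.13, limma adjusted p = 0.0403).

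The call of Smad6 was lost in most fits that left out 1 array. Its limma adjusted p was 0.158, 0.106 and 0.153 without BMP6 replicates 1, 2 and 3, and 0.195 and 0.183 without vehicle replicates 1 and 3, while it was 0.0157 without vehicle replicate 2. Its log2 difference stayed between 0.85 and 1.09 in those 6 fits. Smad7 was called in each of the 6, with log2 differences of 1.66 to 1.76. Over the whole array these 6 fits called 7 to 15 genes, against 17 with all arrays.

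**Figure D2:**
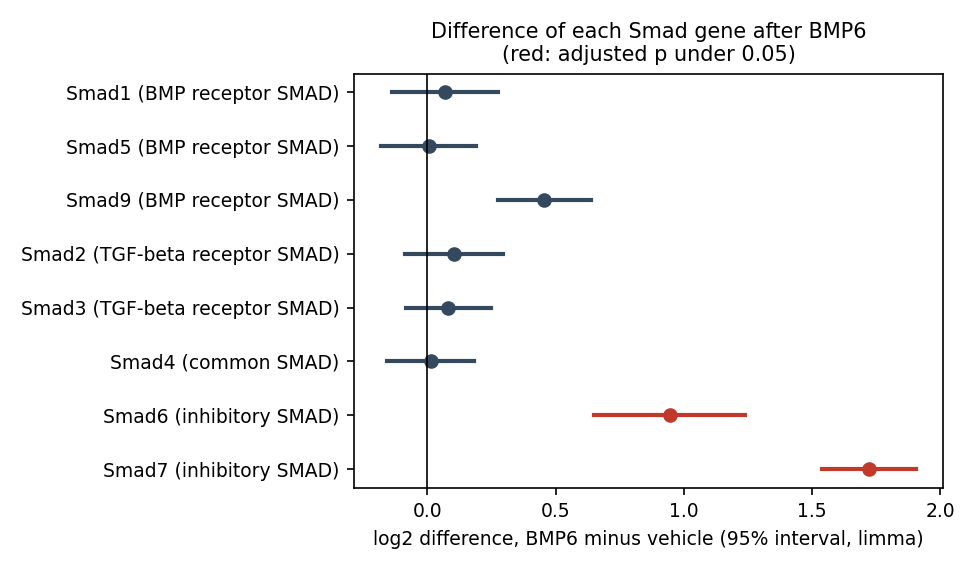
Log2 difference of each Smad gene, BMP6 minus vehicle, with its 95% interval from limma (3 arrays per group). Red marks an adjusted p under 0.05: Smad7 at 1.72 and Smad6 at 0.94 are red, Smad9 lies at 0.46 with an interval above 0, and the intervals of the other 5 genes include 0.

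Among the BMP receptor SMADs, Smad9 stood apart from Smad1 and Smad5 in its values. SMAD9 is a receptor SMAD of the BMP branch with weaker activating capacity than SMAD1 and SMAD5. Smad9 stood at 6.78, 6.66 and 6.85 in vehicle replicates 1, 2 and 3 and at 7.30, 7.15 and 7.22 in BMP6 replicates 1, 2 and 3. The groups did not overlap, with a gap of 0.297 against a vehicle range of 0.191. Its measured level with BMP6 was 1.37 times that of vehicle (95% interval 1.21 to 1.56; log2 difference 0.46, SE 0.08). It did not pass over all genes (unadjusted p = 0.000246, limma adjusted p = 0.166).

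Smad1, a main carrier of BMP signals, read 7.70, 7.44 and 7.70 in the vehicle replicates and 7.71, 7.60 and 7.74 in the BMP6 replicates. Its groups overlapped, and the 95% interval of the fold change was 0.910 to 1.21 (log2 difference 0.069, SE 0.09, limma adjusted p = 1). Smad5, which overlaps in function with Smad1, read 9.16, 8.95 and 8.95 in vehicle and 9.02, 9.08 and 8.98 in BMP6. Here too the groups overlapped, and the interval was 0.882 to 1.14 (log2 difference 0.0047, SE 0.08). For both genes the interval leaves out a rise of the size measured for Smad9 or more.

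Smad2 and Smad3, the receptor SMADs of TGF-beta and activin, did not pass. Smad2 read 8.31, 8.11 and 8.33 in the vehicle replicates and 8.31, 8.32 and 8.43 in the BMP6 replicates, with a fold interval of 0.942 to 1.23 (log2 difference 0.10, SE 0.09). Smad3 read 7.23, 7.23 and 7.21 in vehicle and 7.37, 7.33 and 7.21 in BMP6, with a fold interval of 0.943 to 1.19 (log2 difference 0.082, SE 0.07). In both genes the groups overlapped.

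Smad4, the partner of both branches, read 9.88, 9.90 and 10.04 in the vehicle replicates and 9.94, 9.99 and 9.93 in the BMP6 replicates. Its BMP6 arrays lay inside the vehicle range, and its fold interval was 0.898 to 1.14 (log2 difference 0.014, SE 0.08, limma adjusted p = 1). Smad1, Smad2, Smad3, Smad4 and Smad5 each had an unadjusted p of 0.252 or more. Failing the test does not show that these transcripts were equal in both groups, and the intervals give the sizes that remain possible.

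By class, the mean log2 difference was 1.33 for the 2 inhibitory SMADs, 0.18 for the 3 BMP receptor SMADs, 0.093 for the 2 TGF-beta receptor SMADs and 0.014 for Smad4. The mean of the BMP receptor SMADs was drawn up by Smad9, and their median was 0.069. The difference of Smad6 and Smad7 exceeded that of the 5 receptor SMADs by 1.30, 0.948 and 1.32 on the log2 scale between samples of replicate number 1, 2 and 3, or 1.19 ± 0.21 (SD, n = 3). This is a description of chosen genes and was given no test. Groups did not overlap, with BMP6 higher, for 3 of the 8 SMADs (Smad6, Smad7 and Smad9), where this held for 3.84% of all genes. The same 3 were the members with an unadjusted p under 0.05, which 3.17% of all genes had.

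**Figure D3:**
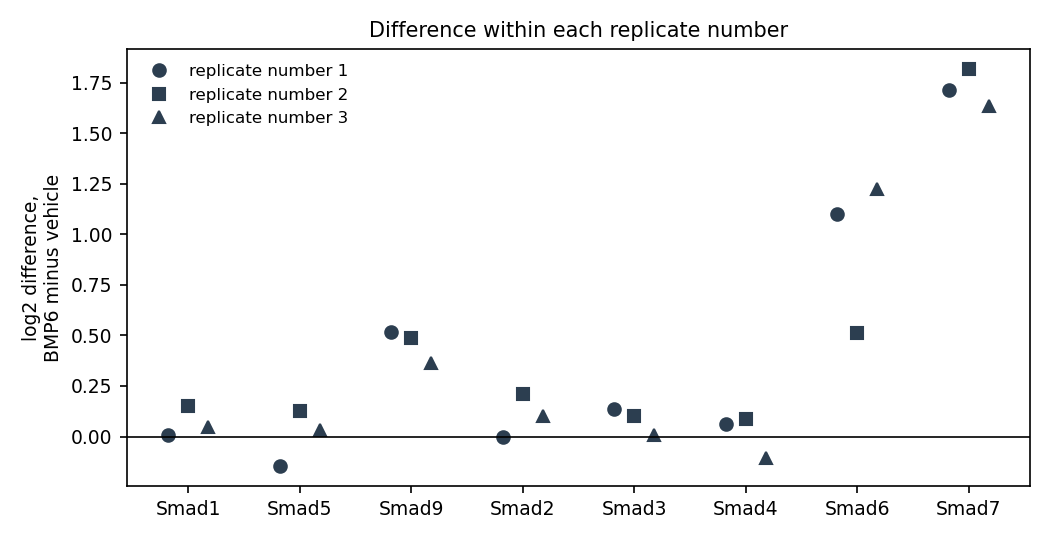
Log2 difference, BMP6 minus vehicle, between samples with the same replicate number, for each Smad gene and with a symbol for each number. Smad7 lies between 1.64 and 1.82, Smad6 between 0.51 and 1.23, Smad9 between 0.36 and 0.52, and the other 5 genes between -0.14 and 0.21.

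The 2 inhibitory SMADs varied differently across the cultures. Between samples of the same replicate number, Smad7 differed by 1.71, 1.82 and 1.64, and Smad6 by 1.10, 0.51 and 1.23. Replicate number 2 thus had the largest difference of Smad7 and the smallest of Smad6. Whether equal numbers mark paired samples is not settled. Vehicle replicate 2 deviated from its group mean by 0.299 for Smad6 and -0.122 for Smad7, and BMP6 replicate 2 by -0.135 and -0.028. The difference of Smad7 exceeded that of Smad6 by 0.616, 1.31 and 0.411, or 0.778 ± 0.469 (SD, n = 3), which was not tested. Smad9 differed by 0.52, 0.49 and 0.36, and exceeded the mean of Smad1 and Smad5 by 0.588, 0.348 and 0.323, also not tested.

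Vehicle replicate 2 was the lowest vehicle array for 4 of the 8 genes, Smad1, Smad2, Smad7 and Smad9, and the highest for Smad6. The labels call all samples biological replicates. Their source names, however, give mouse 2 to both vehicle replicate 2 and vehicle replicate 3. The headers of the deposited table instead give these 2 arrays different codes, each shared with the BMP6 array of the same replicate number, and what the codes stand for is not stated. If both came from 1 animal, the vehicle group holds 2 animals and the p-values rest partly on technical spread. With both averaged as 1 sample, Smad7 and Smad6 were again called (limma adjusted p = 0.0385 for Smad6). With those mouse numbers as a block, Smad7 was called and Smad6 was not (limma adjusted p = 0.148). BMP6 replicate 3 is the only array of its mouse number, so in that fit it adds nothing to the treatment difference. The lost call thus cannot be laid to shared animals alone.

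All 8 SMADs were brighter than most olfactory receptor genes, which are known mainly from olfactory neurons and served as a reference for dim probe sets. Of 1024 such genes, 95% had a mean below 5.56, and the dimmest SMAD group mean, that of Smad6 in vehicle, was 6.33. That reference reached 7.11 at its highest, so Smad6 and Smad9, with means of 6.80 and 6.99 over the 6 arrays, lay within its upper end. RMA compresses differences of dim probe sets.

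The genes whose values ran most like those of Smad7 were Id1, Hes1, Skil and Id3. Likeness was the mean absolute gap, over the 6 arrays, between the deviations of 2 genes from their own means on the log2 scale. It was 0.106 for Id1, an inhibitor of bHLH transcription factors and a known BMP target, and 0.114 for Hes1, a repressor known from Notch signalling. It was 0.127 for Skil, a co-repressor of SMADs, and 0.169 for Id3, a relative of Id1. All 4 were called higher, with log2 differences of 1.47 to 1.76. The deviations were not scaled, so the measure picks genes whose change is close in size. Between Smad7 and Smad6 the gap was 0.389, which follows from their log2 differences of 1.72 and 0.94 and does not compare patterns.

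Closest to Smad6 were Kcnf1, a modifier subunit of potassium channels (gap 0.158), Ccn1, a matrix-associated signalling protein (0.162), Nfkbia, the inhibitor of NF-kB (0.179), and Lfng, which modifies Notch receptors (0.196). Ccn1 and Nfkbia were called higher (log2 differences 0.82 and 0.90), and Kcnf1 and Lfng, at 0.64 and 0.71, did not pass (adjusted p = 0.0887 and 0.0675). Of these 4 genes Kcnf1, like Smad6, had its smallest difference at replicate number 2 (0.36, against 0.90 and 0.67 at numbers 1 and 3), and the other three did not.

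Among the 4 genes closest to Smad9 were Bcor, a co-repressor of BCL6 (0.0539), Id4, a relative of Id1 (0.0553), and Cldn4, a tight junction protein (0.0576). None of these 3 passed in limma, with log2 differences of 0.35 to 0.39 and adjusted p values of 0.277 to 0.790, and all 3 had an unadjusted p under 0.05. The genes close to Smad7, Smad6 and Smad9 were picked for likeness, so their directions, sizes and calls add no support.

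**Figure D4:**
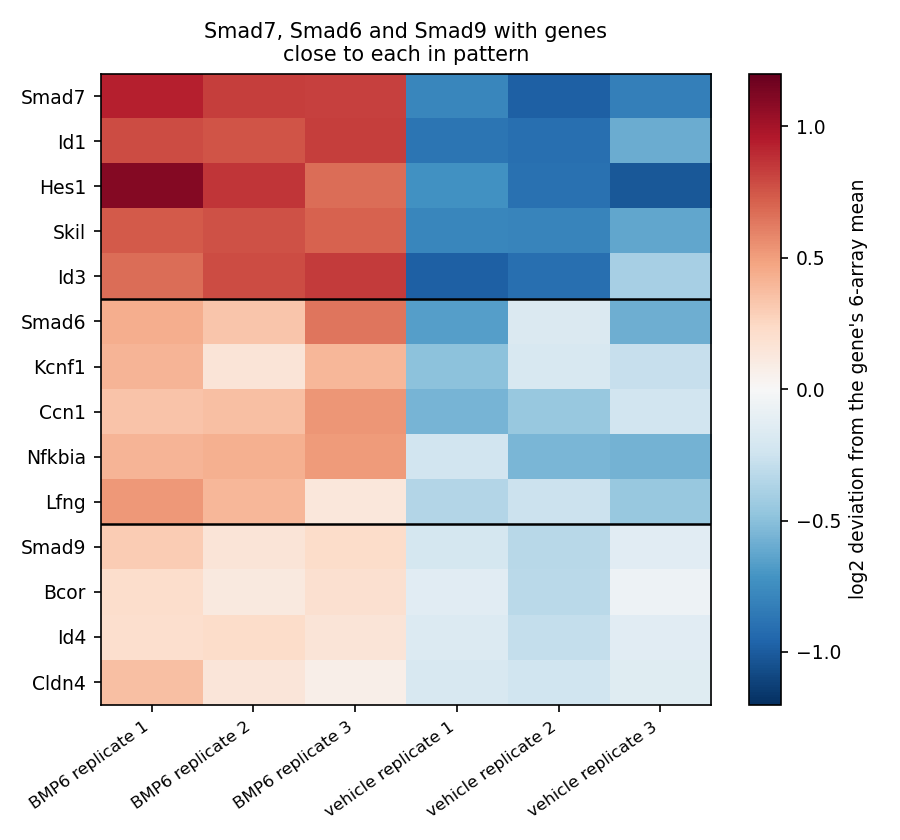
Log2 deviation of each gene from its mean over the 6 arrays (colour, with arrays as columns). Smad7 and Smad6 are each followed by the 4 genes of smallest gap, and Smad9 by 3 of its 4. The Smad7 block has the strongest contrast between BMP6 and vehicle columns, the Smad9 block the weakest, and vehicle replicate 2 is pale for Smad6.

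No receptor that feeds the SMADs was called, which for lists this short is near the array-wide shares of 0.0843% called and 3.17% at an unadjusted p under 0.05. Of the 7 type I and type II receptors of the BMP branch, 0 were called by limma, 0 had an unadjusted p under 0.05, and the median log2 difference was 0.039. Bmpr1a (0.16, SE 0.11) and Bmpr2 (0.096, SE 0.08) were nearest to a call. Of the 5 receptors of the TGF-beta and activin branch the counts were also 0 and 0, with a median of 0.021. The activin receptor Acvr1b (0.15, SE 0.10) and Tgfbr1 (0.051, SE 0.11) were nearest.

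Partners and regulators of SMAD proteins held 2 calls, where 0.0843% of all genes were called. Of 20 co-repressors and DNA-binding partners, Skil alone was called. It stood 2.77-fold above vehicle (log2 difference 1.47, SE 0.08, limma adjusted p = 5.15e-05), while its relative Ski, with a log2 difference of 0.080 (SE 0.10), did not pass. The median of this list was 0.036. Of 19 ubiquitin ligases, deubiquitinases and phosphatases, Pmepa1, a membrane protein that draws receptor SMADs away from their receptor and recruits ligases, was called at 1.61-fold (adjusted p = 0.0253). The median was 0.054, and Smurf1 and Smurf2, ligases that SMAD6 and SMAD7 recruit, had log2 differences of 0.0051 and 0.11 (SE 0.09 each). Of 14 anchors and transport factors 0 were called, 0 had an unadjusted p under 0.05, and the median was 0.049. For a list this short these counts are near the array-wide shares of 0.0843% and 3.17%. Tab1, an adaptor of the kinase TAK1 (-0.17, SE 0.08), and Lemd3, an inner nuclear membrane protein that binds receptor SMADs (0.15, SE 0.12), were nearest.

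Among 17 early targets of the BMP receptor SMADs, a list that includes Smad6, Smad7 and Smad9, 6 were called higher and 0 lower. Over all genes 0.0843% were called higher and 0 lower. The median log2 difference of the list was 0.46. Beside the 2 inhibitory SMADs the called genes were Dlx2, a homeobox factor, at 3.93-fold, Id1 at 2.99-fold, Id3 at 2.88-fold and Atoh8, a bHLH factor, at 1.78-fold. Smad7 thus rose by a fold between those of Dlx2 and Id1, and Smad6, at 1.92-fold, stood between Id3 and Atoh8. Bambi, a decoy receptor, and Nog, a secreted BMP antagonist, are further feedback genes of the pathway. Their log2 differences were 0.092 (SE 0.11) and -0.011 (SE 0.09), and neither passed.

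Among 13 early targets of SMAD2 and SMAD3, a list that includes Smad7, 5 were called higher and 0 lower. The median was 0.40, and over all genes 0.0843% were called higher and 0 lower. The called genes were Smad7, Skil, Klf10, a zinc-finger repressor (2.47-fold), Snai1, a repressor known from epithelial-mesenchymal transition (2.40-fold), and Pmepa1. Ccn2, a matrix protein induced by TGF-beta, had a log2 difference of 0.078 (SE 0.08) and did not pass. Both target lists were written with results of these data known, and their counts are not independent evidence of a direction.

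Genes beside the 4 SMADs examined here on their chromosomes, other than Smad6 itself, did not pass. In RefSeq Smad3 and Smad6 are neighbours among the protein-coding genes of chromosome 9, and Smad6 rose while Smad3 had a log2 difference of 0.082. On the other side of Smad6 lies Lctl, a klotho-related gene, at -0.14 (SE 0.08), and on the other side of Smad3 lies Aagab, at 0.20 (SE 0.08, unadjusted p = 0.0415). Smad7 lies between Dym and Ctif on chromosome 18, with log2 differences of 0.022 (SE 0.09) and -0.0023 (SE 0.07). Smad9 lies between Alg5 and Rfxap on chromosome 3, at 0.011 (SE 0.09) and -0.031 (SE 0.07). Each of these neighbours other than Smad6 had a limma adjusted p of 1.

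The cultures carried the markers of their labelled cell type. Pax7, which defines muscle stem cells, averaged 8.86, and Myod1, the determination factor of activated cells, 12.20. Of 10 markers of muscle stem cells and myoblasts 9 were above the level that 95% of the olfactory receptors stayed under. So were 19 of 30 markers of 5 other cell types of muscle. The median over all genes was 6.41, so most genes of the array passed that level of 5.56 too. Of the 30 markers of other cell types, limma called 0 and 2 had an unadjusted p under 0.05, beside 0.0843% and 3.17% of all genes. The 2 were Clec3b, of fibro-adipogenic cells (log2 difference -0.25), and Cspg4, of pericytes (0.18). The endothelial marker Pecam1 averaged 5.59 and the leukocyte marker Ptprc 4.66. In bulk samples a change in the share of a cell type cannot be told apart from a change within cells. Array medians over the genes tested lay between 6.38 and 6.45.

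**Figure D5:**
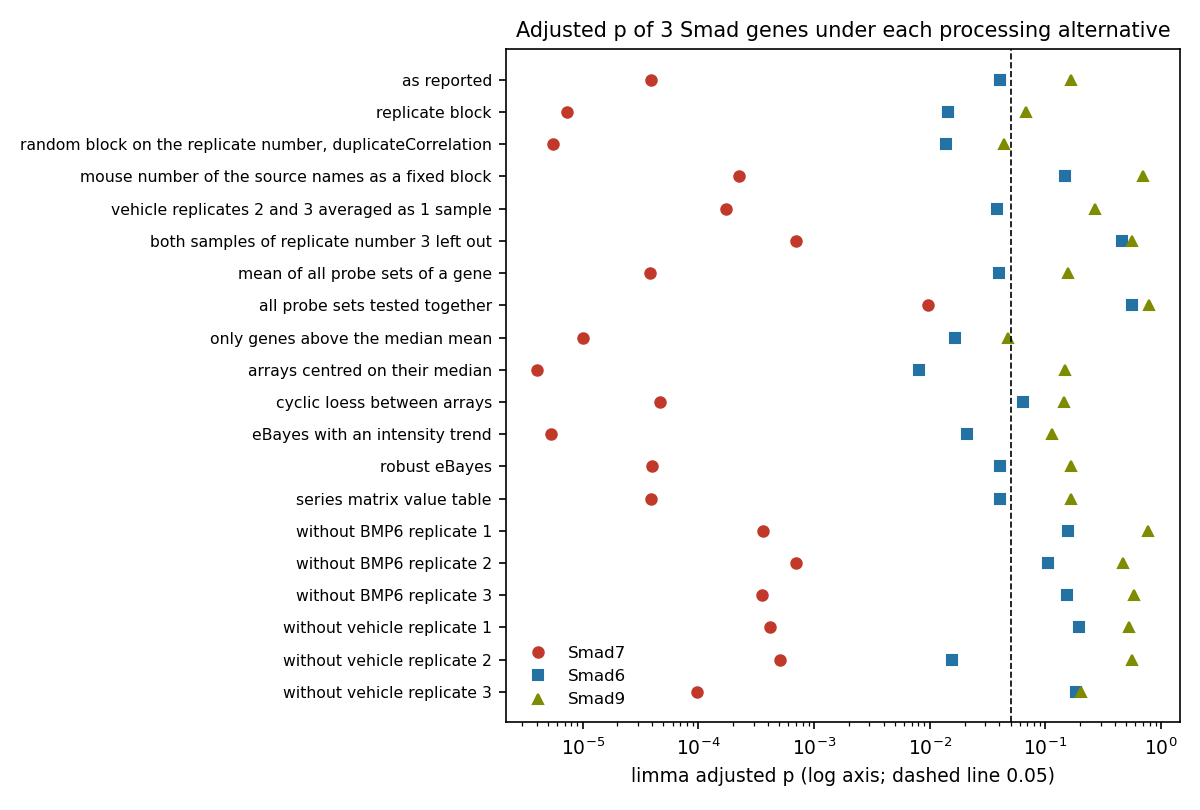
Limma adjusted p (log axis, dashed line at 0.05) of Smad7, Smad6 and Smad9 as reported and under 19 processing alternatives, 1 per row. Smad7 lies left of the line in every row, Smad6 in the reported fit and 10 alternatives, and Smad9 in 2 alternatives.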

How the data were processed

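Total RNA of 6 samples, 3 per treatment, was hybridised to Affymetrix arrays, 1 each. The deposited values are log2 expression from RMA (oligo package), computed by the authors, per the submitters' processing notes. The sources used here do not give array type, versions, annotation source or genome build. RMA forces arrays to 1 distribution, so a shift of most genes would not be seen. Both deposited tables differed by at most 5e-09. Arrays carry no read depth, and their number limits the precision.

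Of 34760 probe sets, 21893 had a symbol, and the brightest per gene was kept (20163 genes). No filter on dim genes was applied. Treatments were compared with limma 3.58.1 in R 4.3.3 (lmFit, eBayes, no covariate, two-sided), adjusted over all genes. The script was tested on simulated data. SDs are over 3 samples, and SEs and 95% intervals are of the moderated test. Promoters came from RefSeq. RefSeq gave the same symbol for the Entrez identifiers of all 8 SMADs.

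Members, gene lists, motifs and tests were chosen with earlier results of these data known. The naming rule took the 8 SMADs and the 4 genes of smallest gap to Smad6, Smad7 and Smad9. From each list the rule took the called genes or the 2 of lowest p. Ski, Smurf1, Smurf2, Bambi, Nog, Ccn2, chromosomal neighbours and markers were named beyond it, after their values were seen, and 1 gene close to Smad9 is not reported here. Its olfactory reference found only 2 genes under the old Olfr symbols, so current symbols were added after seeing the data. Alternatives were replicate and mouse blocks, omitted or averaged samples, other probe set, dim gene and normalization choices, other variance priors and the second table.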

Additional observations from a re-analysis of the deposited data

How the results depend on the processing

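Smad7 was called in all 19 alternatives (adjusted p from 4.03e-06 to 0.00963). Smad6 was higher in all 19 and called in 10, and Smad9 was higher in all 19 and called in 2, with replicate number as a random block (adjusted p = 0.0439) and among genes above the median mean (0.0471). The second table and the mean of all probe sets left the SMAD values unchanged. For these genes both nearly repeat the reported fit and say little about how firm a call is. The count of SMADs called, 2 as reported, was 1 with the mouse numbers as a block, without both samples of replicate number 3, with all probe sets tested together and with cyclic loess. It was 3, with Smad9 added, with the random block and among genes above the median mean. It was 1 to 2 when 1 array was left out. Where 1 was called it was Smad7, and where 2 were called (without vehicle replicate 2) they were Smad6 and Smad7. The cause was not tested. The limma adjusted p of Smad6 was 0.461 without replicate number 3, 0.558 with all probe sets and 0.0639 with cyclic loess.

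The count of genes called, 17 as reported, was 32 with the random block, 3 with all probe sets tested together, 30 among genes above the median mean (fewer genes tested), 26 with arrays centred on their median and 26 with an intensity trend in eBayes. It was 7 to 15 when 1 array was left out, 7 being without BMP6 replicate 2, 10 without BMP6 replicate 1 and 9 without vehicle replicate 1 or 2. Differences near 0 changed sign: Smad5 was at -0.030 with vehicle replicates 2 and 3 averaged, -0.0083 without replicate number 3 and -0.016 with cyclic loess, and Smad4 at -0.011 with cyclic loess. With 1 array left out, Smad1 ranged from -0.016 to 0.11, Smad4 from -0.016 to 0.062 and Smad5 from -0.031 to 0.074. None was called in any fit. The excess of inhibitory over receptor SMADs stayed between 1.13 and 1.28.

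Replicate number as a fixed block gave 29 called genes and 2 SMADs, with an adjusted p of 0.0143 for Smad6 and 0.0684 for Smad9. Header codes tie same-numbered arrays of both treatments together for numbers 1, 2 and 3, which speaks for pairing, while the source names do not for number 3. The codes are unexplained, so pairing is not settled. Deviations from group means correlated across genes at 0.315, 0.0475 and 0.434 for numbers 1, 2 and 3, and vehicle replicate 2 correlated better with BMP6 replicate 1 (0.179) than with BMP6 replicate 2. Without detection calls, signal over background is known only from the olfactory reference.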
